A study of Homo sapiens with 6 samples.

Results

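The tripartite motif (TRIM) genes were examined in HuH7, an established cell line from a human liver cancer, given either a control gapmer or a gapmer against the long noncoding RNA EGOT. Members were the array's probe sets whose annotated symbol is TRIM followed by digits, with an optional letter and without pseudogenes, each gene being read by its probe set with the highest mean. The rule gave 60 genes, read by 92 probe sets, among 14812 named genes and 44629 probe sets in all. A gapmer is a short antisense oligonucleotide through which RNase H cuts the RNA that it pairs with. Both groups of 3 arrays also received a plasmid expressing the double-stranded RNA kinase PKR, 0.3 µg per well, and poly I:C, an artificial double-stranded RNA, so no group shows the TRIM genes without this stimulus. Each well of 100000 cells received 50 pmol of gapmer, and RNA was taken 36 hours after transfection. The design has a single gapmer sequence on each side, and the comparison asks which transcripts differ once EGOT is depleted in stimulated cells.

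TRIM proteins carry a RING finger, B-box domains and a coiled coil at their amino-terminal end, followed by a variable carboxy-terminal part. The RING finger makes most of them E3 ubiquitin ligases, and the carboxy-terminal part, often a PRY-SPRY domain, contacts the target. Several are induced by interferon and act against viruses, either by binding viral proteins or by attaching ubiquitin to sensors and adaptors of innate immunity, whereas others control transcription, the cytoskeleton or protein quality.

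The interferon-stimulated response element is the promoter element through which interferon induces many genes, and its core was searched for as a pair of GAAA repeats with any NN between them, on either strand and with overlaps allowed, from 250 bases before to 50 bases after the gene start in RefSeq (GRCh38.p14). Windows were available for 45 of the 60 genes, and 9 of these genes (20%) held the core, against 4.38% of 27305 genes in the table. Counted by window, since a gene can have several starts, the shares were 14.8% of 61 TRIM windows and 3.57% of 35116 windows. The windows below are from genes whose levels are described next, and are shown because 3 of them hold the core close to the start and the fourth does not. They are TRIM5 (chr11:5685025-5685324, minus strand), TRIM21 (chr11:4393653-4393952, minus strand), TRIM14 (chr9:98119173-98119472, minus strand) and TRIM25 (chr17:56914000-56914299, minus strand), written 5′ to 3′ with every core match in capitals.
TRIM5: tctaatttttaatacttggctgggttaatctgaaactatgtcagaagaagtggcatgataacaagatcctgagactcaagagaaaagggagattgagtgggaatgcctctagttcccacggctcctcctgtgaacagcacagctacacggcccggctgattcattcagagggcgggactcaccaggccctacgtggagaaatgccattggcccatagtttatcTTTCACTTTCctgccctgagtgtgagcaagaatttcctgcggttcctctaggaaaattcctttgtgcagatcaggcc
TRIM21: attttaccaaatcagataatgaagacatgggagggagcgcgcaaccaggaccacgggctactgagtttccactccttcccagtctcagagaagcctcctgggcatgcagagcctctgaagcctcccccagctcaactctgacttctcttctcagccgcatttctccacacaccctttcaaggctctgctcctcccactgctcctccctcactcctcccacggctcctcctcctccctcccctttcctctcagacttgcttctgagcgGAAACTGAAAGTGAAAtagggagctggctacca
TRIM14: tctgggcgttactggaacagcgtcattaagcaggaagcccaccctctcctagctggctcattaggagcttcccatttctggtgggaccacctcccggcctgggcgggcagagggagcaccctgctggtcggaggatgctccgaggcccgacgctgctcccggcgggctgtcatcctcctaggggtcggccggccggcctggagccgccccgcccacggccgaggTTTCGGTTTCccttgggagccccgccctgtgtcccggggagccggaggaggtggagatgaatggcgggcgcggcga
TRIM25: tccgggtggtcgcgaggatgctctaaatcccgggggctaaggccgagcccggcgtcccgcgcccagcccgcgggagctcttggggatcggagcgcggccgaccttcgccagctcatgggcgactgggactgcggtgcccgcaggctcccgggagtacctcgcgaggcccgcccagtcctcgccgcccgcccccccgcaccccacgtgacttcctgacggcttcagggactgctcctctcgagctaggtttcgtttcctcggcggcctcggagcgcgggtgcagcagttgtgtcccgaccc

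The core begins 27 bases before the start in TRIM5 and 26 bases before it in TRIM14. In TRIM21 a pair of overlapping matches begins 18 and 24 bases after the start, in the run GAAACTGAAAGTGAAA. A match is a description of these letters, and its absence from a window says nothing about the factors that bind there.

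EGOT, the target, was lower on every EGOT gapmer array. Its log2 level was 6.29, 6.79 and 6.71 with the control gapmer and 4.91, 4.90 and 4.69 with the EGOT gapmer, a log2 fold change of -1.76 with a standard error of 0.142 (limma adjusted p = 0.0076). Hepatocyte markers, among them ALB and AFP, had means of 12.67 to 12.69 with the control gapmer and 12.64 to 12.65 with the EGOT gapmer, and 0 of 8 measured markers passed the limma test (1 at an unadjusted p under 0.05). Of 8 leukocyte markers 4 were measured, and CD68 and LYZ rose, by 1.06 and 0.57 on the log2 scale. The mean of these 4 was 6.90 to 7.00 and 7.34 to 7.49 in the respective groups. CD2 and CD14, with control means of 5.15 and 5.65, did not pass. Of the fibroblast and endothelial markers 2 each were measured and 0 passed, also at an unadjusted p under 0.05. The part of these markers in the TRIM differences was not tested. The median over all probe sets was 5.08 to 5.23, highest on EGOT gapmer replicate 2 and lowest on EGOT gapmer replicate 3. Over the genes tested it was 6.14 to 6.22, and 6.16 on EGOT gapmer replicate 3.

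Among the TRIM genes, 4 fell and 2 rose with the EGOT gapmer. Those that fell were TRIM5, TRIM21, TRIM22 and TRIM25, all known as interferon-induced antiviral genes, to between 68.1% and 72.7% of the control level. Those that rose were TRIM52 and TRIM41, to 1.60 and 1.32 times that level. The 6 genes are 10.0% of the 60, against 8.41% of all genes tested, which is near the background. By direction, 6.67% of the TRIM genes fell against 3.21% of all genes, and 3.33% rose against 5.20% of all genes. The threshold is an adjusted p of 0.05 from limma with Benjamini-Hochberg adjustment over all 14812 genes. At an unadjusted p under 0.05 there were 19 TRIM genes (31.7%, against 25.0% of all genes).

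The median log2 fold change over the 60 genes was 0.04, as it was over all genes tested. A fold change above 0 was seen in 33 (of all genes, 57.8% were above 0) and below 0 in 27. The values of the groups did not overlap in 23 TRIM genes (38.3%, against 31.7% of all genes), 11 higher and 12 lower, where 20.2% of all genes were higher and 11.5% lower in this way. An exact permutation test of 3 arrays against 3 cannot go below p = 0.1, two-sided, even where the groups do not overlap.

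TRIM25 encodes the ubiquitin ligase that helps to activate the viral RNA sensor RIG-I and works with the antiviral protein ZAP. Its log2 level was 9.88, 10.03 and 9.74 in control gapmer replicates 1 to 3 and 9.38, 9.40 and 9.24 in EGOT gapmer replicates 1 to 3. The lowest control array lay above the highest EGOT gapmer array. The log2 fold change was -0.54 with a standard error of 0.0964 (limma adjusted p = 0.0239), which is 68.5% of the control level.

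TRIM5 encodes the cytoplasmic factor that recognises incoming retroviral capsids. It read 7.00, 7.07 and 6.85 with the control gapmer and 6.41, 6.50 and 6.34 with the EGOT gapmer, again without overlap. Its log2 fold change of -0.55 had a standard error of 0.0855 (limma adjusted p = 0.0173). TRIM21 encodes the cytosolic antibody receptor that marks antibody-bound virus for degradation. It read 6.77, 6.83 and 6.71 with the control gapmer and 6.29, 6.34 and 6.08 with the EGOT gapmer. Its groups were apart, and the log2 fold change was -0.53 with a standard error of 0.0899 (limma adjusted p = 0.0215).

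TRIM22, an interferon-induced gene known to restrict several viruses, was the dimmest of the 4 that fell and lay below the median of the gene means, 6.16. It read 5.88, 5.75 and 5.73 with the control gapmer and 5.40, 5.39 and 5.19 with the EGOT gapmer. They did not overlap, and the log2 fold change was -0.46 with a standard error of 0.0873 (limma adjusted p = 0.0282).

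TRIM56 and TRIM14 lay near the threshold. TRIM56, a ligase that supports antiviral signalling by double-stranded RNA and DNA sensors, read 7.96, 8.06 and 7.80 with the control gapmer and 7.63, 7.61 and 7.40 with the EGOT gapmer. Its log2 fold change of -0.39 missed the threshold (limma adjusted p = 0.0574), with a 95% interval from -0.63 to -0.16. TRIM14, which lacks a RING finger and serves as an adaptor of the mitochondrial signalling protein MAVS, read 7.43, 7.24 and 7.12 and then 6.96, 6.94 and 6.81. Its log2 fold change of -0.36 missed the threshold (limma adjusted p = 0.0666). In both genes every EGOT gapmer array lay below every control array.

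The remaining measured genes of the list of known interferon-induced TRIM genes stayed close to 0. TRIM26 had a log2 fold change of 0.12 (95% interval -0.03 to 0.28), TRIM38, a brake on innate signalling, of 0.11 (-0.12 to 0.35), and TRIM69 of -0.07 (-0.23 to 0.09). Their limma adjusted p-values were 0.298, 0.540 and 0.575. Of the 10 genes in the list 9 were measured, 4 fell (44.4%), 0 rose and the median log2 fold change was -0.39. Of the 51 other TRIM genes 0 fell and 2 rose (3.92%), and their median was 0.05. Over all genes 3.21% fell and 5.20% rose. The list was drawn up with earlier results of these data known, so its contrast with the other members is a description only. The mean over the 9 genes was 7.07, 7.10 and 6.99 on the control gapmer arrays and 6.77, 6.82 and 6.67 on the EGOT gapmer arrays. In 7 of the 9 genes every EGOT gapmer array was below every control array, as in 11.5% of all genes, and in TRIM26 every one was above. In these 7, EGOT gapmer replicate 3 was the lowest of the 6 arrays in 6.

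**Figure D1:**
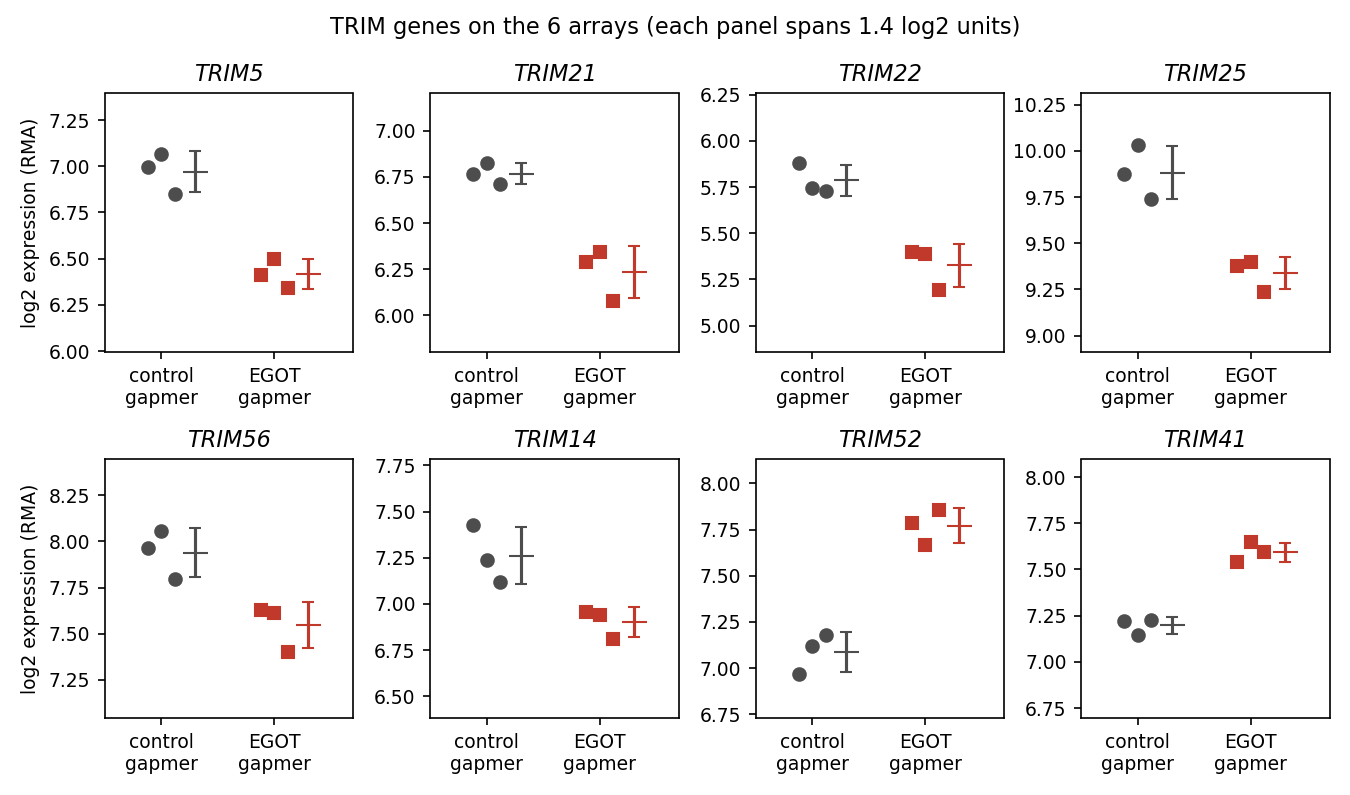
Log2 expression (vertical axis, RMA values) of 8 TRIM genes on each array, with grey circles for the 3 control gapmer arrays and red squares for the 3 EGOT gapmer arrays, replicates 1 to 3 from left to right. Horizontal marks and bars give the mean and SD (n = 3 each), and in all 8 panels the groups are apart, with TRIM56 and TRIM14 short of the threshold.

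The core searched for above was found in TRIM5 and TRIM21, which fell, and in TRIM14, TRIM26 and TRIM69 of the same list, with log2 fold changes from -0.36 to 0.12. It was also found in TRIM44 (-0.35), TRIM64C (-0.45), TRIM2 (-0.08) and TRIM16 (0.11), which did not pass. TRIM25, TRIM41 and TRIM52 had windows without it, as did TRIM56, and TRIM22 is not among the 45 genes with a window. The palindrome TTCNNNGAA, the core of sites bound by STAT factors, was in 11 of the 45 genes (24.4%) and in 9.38% of all genes. Among the 11 were TRIM49, TRIM49B, TRIM64 and TRIM64B, whose families have close copies in the genome, so these may not be separate hits. None of the windows of TRIM5, TRIM21, TRIM25, TRIM41 and TRIM52 held it. The same was true of TRIM14, TRIM26, TRIM38, TRIM56 and TRIM69 of the interferon-induced list.

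TRIM52 and TRIM41 rose. TRIM52, a ligase with an unusually long acidic RING finger and no carboxy-terminal domain, read 6.97, 7.12 and 7.18 with the control gapmer and 7.78, 7.67 and 7.86 with the EGOT gapmer. The highest control array was below the lowest EGOT gapmer array, and the log2 fold change of 0.68 with a standard error of 0.0879 (limma adjusted p = 0.0126) was the largest rise among the 60. TRIM41, a PRY-SPRY ligase known to act on the influenza nucleoprotein, read 7.22, 7.14 and 7.22 and then 7.54, 7.65 and 7.59. Its log2 fold change was 0.40 with a standard error of 0.0693 (limma adjusted p = 0.0233), and its groups did not overlap.

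These genes lie near each other on chromosome 5, where TRIM7, TRIM41, RACK1 and TRIM52 follow in this order among protein-coding genes. TRIM7, another PRY-SPRY ligase, had a log2 fold change of 0.19 that missed the threshold (limma adjusted p = 0.527), and RACK1 was not analysed here. TRIM7 was spread on the EGOT gapmer arrays, with 4.77, 5.41 and 4.95 against 4.87, 4.90 and 4.80. Of the 14 measured TRIM genes on chromosome 11, 3 fell (21.4%, against 3.21% of all genes). They were TRIM5, TRIM21 and TRIM22, which all belong to the interferon-induced list. TRIM5 and TRIM22 are separated by TRIM6 and TRIM34. TRIM68 and TRIM3, also on that chromosome, had log2 fold changes of -0.21 and 0.02 and did not pass. The grouping by position was chosen after the values were seen.

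Each member was placed in a single domain class. Members without a RING finger, and those with COS, FN3 and SPRY domains, were kept apart from the PRY-SPRY class, also where they end in a SPRY domain. So defined, the PRY-SPRY class holds 31 of the 60 members. Of these 31, 5 passed, or 16.1%, against 10.0% of the TRIM genes and 8.41% of all genes. Nothing particular to the class is read from this. The remaining gene that passed, TRIM52, belongs to the 7 members with no carboxy-terminal domain. Of the 4 members placed in the class without a RING finger 0 passed in limma. In this class 2 were at an unadjusted p under 0.05, as were 25.0% of all genes. TRIM44 of this class, a protein with a zinc finger of the deubiquitinase type, read 7.35, 7.52 and 7.25 with the control gapmer and 6.89, 7.04 and 7.14 with the EGOT gapmer. These did not overlap, and the log2 fold change of -0.35 missed the threshold (limma adjusted p = 0.0786).

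The 4 members with a PHD finger and a bromodomain regulate transcription, and 0 of them passed in limma. Of these, 2 were at an unadjusted p under 0.05, as were 25.0% of all genes. TRIM24, a coregulator of nuclear receptors, read 9.38, 9.49 and 9.41 with the control gapmer and 9.02, 9.25 and 9.15 with the EGOT gapmer, with a log2 fold change of -0.29 (limma adjusted p = 0.0786). TRIM28, or KAP1, the corepressor recruited by KRAB zinc finger proteins, read 9.07, 9.03 and 8.90 and then 9.14, 9.20 and 9.23, with a log2 fold change of 0.19 (limma adjusted p = 0.182). Both sets of values were apart between groups, in opposite directions. TRIM33, which controls SMAD4 in TGF-beta signalling, had a log2 fold change of 0.12 (limma adjusted p = 0.377) and TRIM66 of -0.03 (limma adjusted p = 0.883).

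Further members had small differences that did not pass. TRIM37, a MATH domain ligase that acts at centrosomes, had a log2 fold change of -0.22 (limma adjusted p = 0.140). TRIM13, a ligase anchored in the endoplasmic reticulum membrane, had one of 0.19 (limma adjusted p = 0.145), and the PRY-SPRY member TRIM27 one of 0.22 (limma adjusted p = 0.148). TRIM59, the other member with a transmembrane segment, had one of 0.25 with overlapping groups (limma adjusted p = 0.180). In the NHL class, which includes the muscular dystrophy gene TRIM32, the 3 members had log2 fold changes from -0.08 to 0.04. The 4 microtubule-associated members with COS, FN3 and SPRY domains ranged from -0.22 to 0.08. Of the 54 genes that did not pass, 41 had a 95% interval that lay within 0.5 of 0 on either side.

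**Figure D2:**
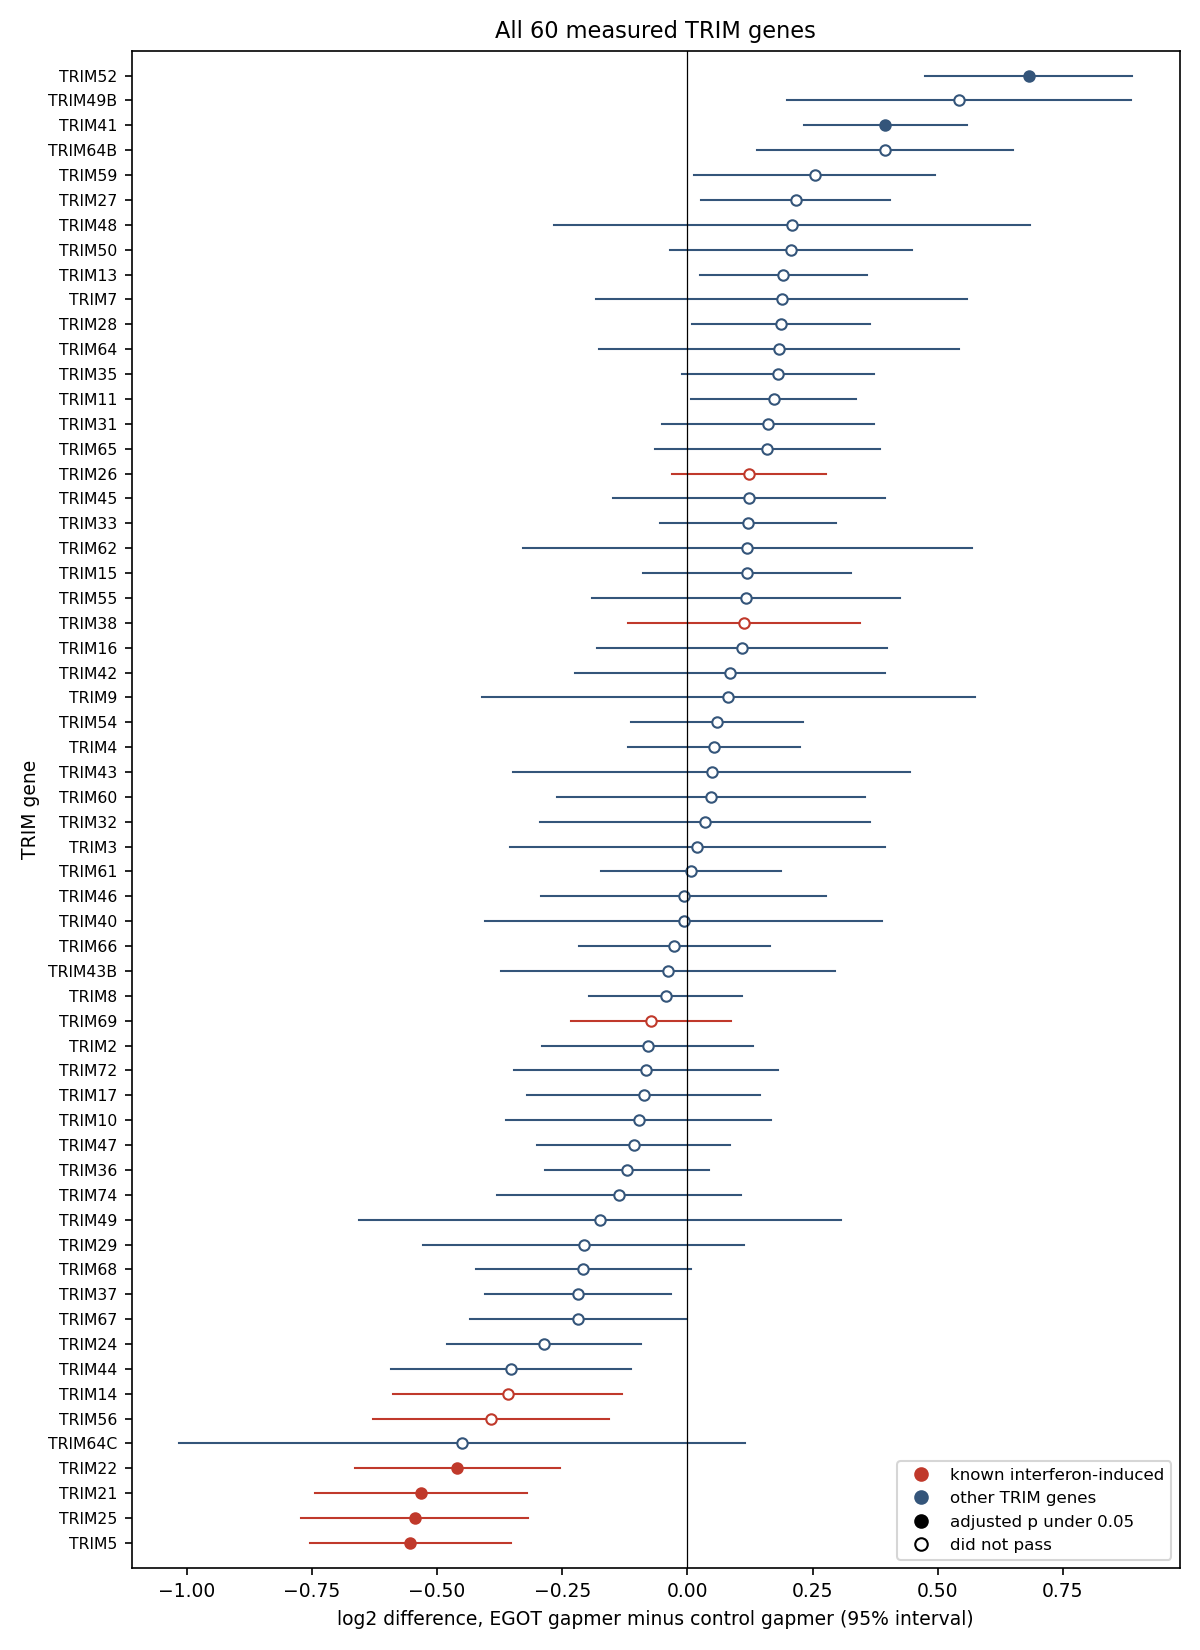
Log2 fold change (horizontal axis, EGOT gapmer minus control gapmer) with its 95% interval for each of the 60 TRIM genes (vertical axis), ordered by size. Red marks known interferon-induced genes, and filled points passed the threshold; TRIM5, TRIM25, TRIM21 and TRIM22 have the lowest values and TRIM52 the highest.

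The 8 members TRIM43, TRIM43B, TRIM48, TRIM49, TRIM49B, TRIM64, TRIM64B and TRIM64C belong to families with close copies in the genome, so their values are uncertain where probes bind several copies. Log2 fold changes of these 8 ran from -0.45 to 0.54, and 0 passed in limma. Of the 8, 2 were at an unadjusted p under 0.05 (25.0%, as of all genes). TRIM49B read 2.93, 2.94 and 2.84 with the control gapmer and 3.21, 3.79 and 3.35 with the EGOT gapmer, near the low end of the scale (limma adjusted p = 0.0658). TRIM64B read 5.10, 5.27 and 5.50 and then 5.65, 5.65 and 5.76, with a log2 fold change of 0.39 (limma adjusted p = 0.0697). Both were higher on every EGOT gapmer array. In all, 14 of the 60 TRIM genes lay below the median of all probe sets on every array, where background compresses differences.

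The 7 members on chromosome 6 are in part represented several times on the array. TRIM10, TRIM15, TRIM27, TRIM31 and TRIM40 had 5 to 8 probe sets each, and the other 55 genes had 1. Over its 8 probe sets the log2 fold change of TRIM27 was 0.16 to 0.23, and over its 8 that of TRIM40 was -0.02 to 0.09, so the choice of probe set decided the sign there. None of the 7 genes passed in limma, and 1, TRIM27, was at an unadjusted p under 0.05 (14.3%, against 25.0% of all genes). Values identical to those of another probe set occurred in 18 of the 92 TRIM probe sets, and in 0 of them was the other probe set named for a different gene.

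A list of TRIM and TRIM-like genes that carry other symbols included MID1, the microtubule-associated ligase also called TRIM18, which fell. Its mean log2 level went from 7.26 to 6.61, a log2 fold change of -0.65 with a standard error of 0.0689 (limma adjusted p = 0.00925). RFPL4B, of the ret finger protein-like genes, rose by 0.47 (limma adjusted p = 0.0267). PML, or TRIM19, the organiser of nuclear bodies and itself interferon-induced, had a log2 fold change of -0.31 that missed the threshold (limma adjusted p = 0.130), and TRIML2 had one of -0.15 (limma adjusted p = 0.445). Of 16 measured genes in this list 1 rose and 1 fell (12.5% in all, against 8.41% of all genes), with a median of 0.01.

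The pathway in which TRIM25 acts was measured through 19 of 31 listed genes, of which 1 fell and 0 rose, with a median log2 fold change of 0.01. The share that passed, 5.26%, is near the 8.41% of all genes. However, 16 of the 19 lie above the median of the gene means, where 1055 of 7406 genes passed. An unadjusted p under 0.05 was seen in 7 (36.8%, against 25.0% of all genes), 3 higher and 4 lower. Groups did not overlap in 11 (57.9%, against 31.7% of all genes), 7 higher and 4 lower. IFIH1, which encodes the sensor MDA5, fell by 0.45 on the log2 scale (limma adjusted p = 0.0406). RIGI, the sensor that TRIM25 ubiquitinates, had a log2 fold change of -0.50 that missed the threshold (limma adjusted p = 0.0613). USP15, a deubiquitinase known to act on TRIM25, had one of -0.32 (limma adjusted p = 0.0660), and UBE2V2, a cofactor in building ubiquitin chains, one of 0.39 (limma adjusted p = 0.0871). RNF135, or Riplet, another RIG-I ligase, had one of -0.17 (limma adjusted p = 0.482). MAVS, the adaptor downstream of RIG-I, had one of 0.03 (limma adjusted p = 0.867).

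Partners of TRIM28 in heterochromatin formation were measured through 13 of 15 listed genes, of which 4 rose and 1 fell, with a median log2 fold change of 0.10. These are 30.8% and 7.69% of the list, against 5.20% and 3.21% of all genes. All 13 lie above the median of the gene means, where 1055 of 7406 genes passed. ZNF10, a KRAB zinc finger gene, rose by 0.60 (limma adjusted p = 0.0142), and CHD3, of the NuRD remodelling complex, by 0.47 (limma adjusted p = 0.0212). MPHOSPH8, of the HUSH silencing complex, rose by 0.49 (limma adjusted p = 0.0244), and the heterochromatin protein gene CBX1 by 0.42 (limma adjusted p = 0.0293). DNMT1, the maintenance DNA methyltransferase, fell by 0.40 (limma adjusted p = 0.0278). CBX5 and CBX3, the other heterochromatin protein genes, had log2 fold changes of -0.25 and 0.10 and did not pass.

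**Figure D3:**
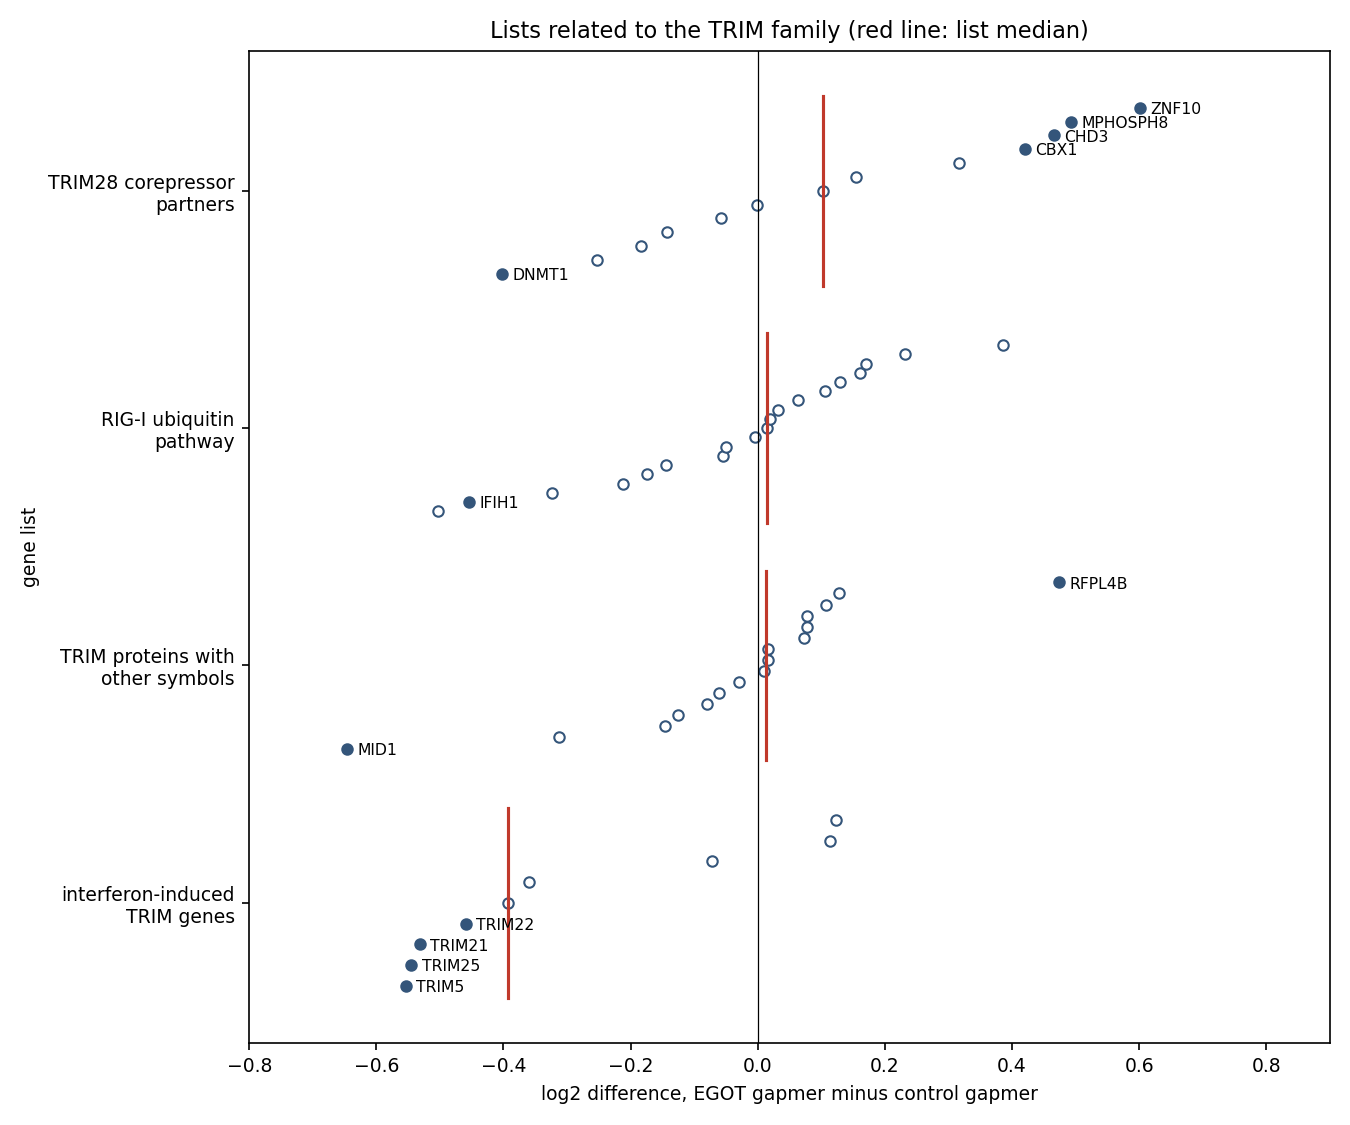
Log2 fold change (horizontal axis, EGOT gapmer minus control gapmer) of each measured gene in 4 related lists, with filled and named points past the threshold and a red line at each list's median. The interferon-induced TRIM genes have a median of -0.39, against 0.01, 0.01 and 0.10 for the other lists. All 4 lists were drawn up with earlier results of these data known.

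The calls rested on all 6 arrays and on the genes tested. Without control gapmer replicate 1, 2 or 3, 0 TRIM genes passed in limma. In these fits 18, 12 and 15 of the 60 were at an unadjusted p under 0.05. Over all 14812 genes 3059, 2957 and 2965 were. Without EGOT gapmer replicates 1, 2 and 3, 4, 3 and 1 TRIM genes passed, TRIM52 among them each time. With every probe set of the array tested, named or not, 0 of the 6 passed, with limma adjusted p-values of 0.0512 for TRIM52 to 0.0890 for TRIM22. Then 14 TRIM genes were at an unadjusted p under 0.05, against 3126 of the 14812 genes. TRIM41 also did not pass once a trend of the differences on gene span was removed, when its log2 fold change was 0.31 (limma adjusted p = 0.0550). Under other scalings the TRIM split was 2 higher and 8 lower by quantile normalization and by cyclic loess, where TRIM24, TRIM37, TRIM44 and TRIM56 also fell. Over all genes 679 were then higher and 674 lower by the former and 644 and 677 by the latter, against 770 and 475 as reported. With arrays centred on their medians 3 TRIM genes rose, TRIM49B among them, and 5 fell.

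**Figure D4:**
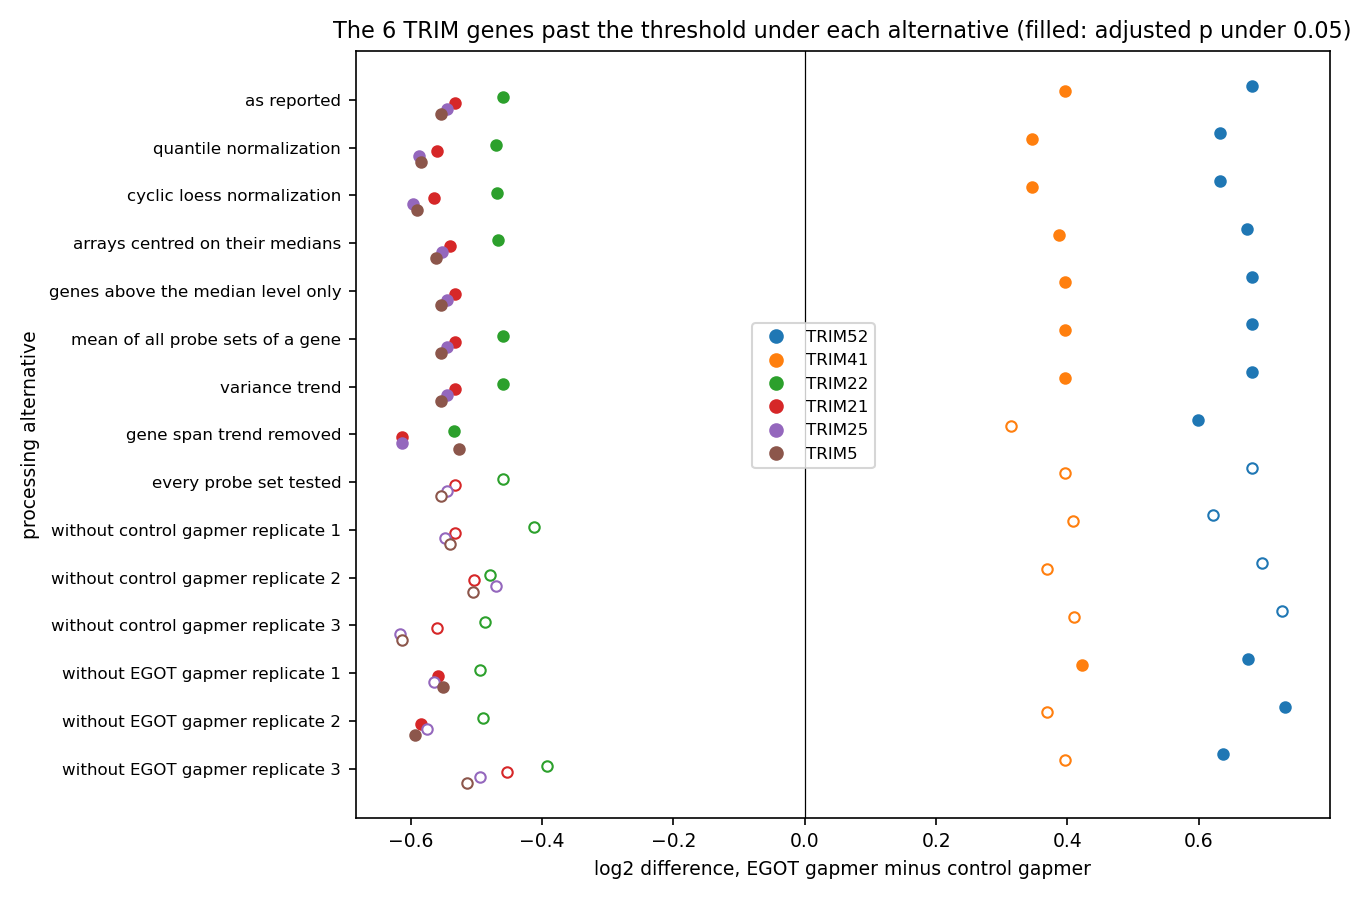
Log2 fold change (horizontal axis) of the 6 TRIM genes that passed, as reported and under other scalings, filters and models and with each array left out (vertical axis), with filled points where the adjusted p was under 0.05. No gene changed direction, and TRIM52 stayed between 0.60 and 0.73. The model with a replicate block, under which none of the 6 passed, is not drawn.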

How the data were processed

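The deposited values are log2 expression values on 6 arrays, which the authors made with RMA (per the submitters' processing notes). This method corrects the background, sets the probe values of the arrays to a shared distribution and then summarises probes into probe sets. A change in total RNA per cell would therefore not be seen. The deposited probe set values do not share a distribution, since their medians ran from 5.08 to 5.23 between arrays. For its version, its software, the genome build and any filter, the answer is not given in the sources used here. Of 44629 probe sets, 15835 (35.5%) carried a symbol in the platform annotation, and all of these matched RefSeq (GRCh38.p14). The others stayed out of the gene fit.

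Each gene was represented by its probe set with the highest mean. The EGOT gapmer arrays were set against the control gapmer arrays with lmFit and eBayes of limma 3.58.1 in R 4.3.3, two-sided. Benjamini-Hochberg adjustment ran over 14812 genes, with a threshold of 0.05. On data simulated from the same 14812 genes the fit called 44% of 100 genes given a log2 change of 0.5 and 80% of 100 given one of 1. Only these genes were changed in the simulation, whereas 8.41% of all genes passed in the data. The adjustment depends on the share of changed genes, so these percentages are not the detection rates of the comparison itself. The number of arrays limits the precision, and nothing in the labels says that replicates were separate cultures. The p-values therefore measure only the spread among these arrays, possibly a technical one.

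The TRIM genes, the related lists and the domain classes were chosen with earlier results of these data known, and the lists come from general knowledge of the family. Named genes are TRIM21, TRIM22 and TRIM25, every TRIM gene past the threshold, the next 8 by p, the 3 with the highest mean, and the 4 of each related list with the smallest p. Others were named after their values were seen. Promoter windows came from RefSeq. Other scalings, filters, variance models and probe set rules, a correction for gene span, a replicate block and the removal of each array were tried. All 6 arrays were used.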

Additional observations from a re-analysis of the deposited data

How the results depend on the processing

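The direction of 29 named genes was followed through the alternatives, and the other genes named above were not. None of the 29 changed direction in any of the 9 alternatives on all 6 arrays or the 6 that leave out an array. As reported, 2 TRIM genes rose and 4 fell. With only the genes above the median level 4 rose and 8 fell, and with a variance trend 5 and 9, the dimmer TRIM22 being left out of the former. Quantile normalization and cyclic loess each gave 8 that fell, while over all genes they gave 679 higher and 674 lower, and 644 and 677. Once the gene span trend was removed, 1 TRIM gene rose, and the median over the TRIM genes became -0.0302. Over all genes, 1245 calls (770 higher, 475 lower) became 2547 (1688 and 859) among the brighter genes, 2513 (1664 and 849) with a variance trend, 564 (280 and 284) with the span trend removed and 67 (25 and 42) with every probe set tested.

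The interferon-induced TRIM list had 4 to 6 lower genes, not always the same ones, except with every probe set tested (0), the replicate block (0) and arrays left out. In the RIG-I list, 3 rose among the brighter genes and 2 with a variance trend; 4 fell by quantile normalization, cyclic loess and among the brighter genes, 3 with a variance trend, 2 with arrays centred on their medians and 0 with every probe set tested. Among the TRIM28 partners 2 fell in the brighter genes and with a variance trend, and 0 rose or fell with every probe set tested.

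Leaving out 1 array gave 9 to 579 calls over all genes (2 to 389 higher, 7 to 258 lower), 0 to 2 TRIM genes higher and 0 to 2 lower, and a TRIM median from -0.0047 to 0.06. The interferon-induced list had 0 to 2 lower and 0 higher, the RIG-I list 0 to 1 lower and 0 higher, and the TRIM28 partners 0 to 3 higher and 0 to 1 lower. The cause was not tested beyond the construction of each alternative, such as fewer arrays or other genes tested.

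The replicate number was also used as a block, since both groups are numbered 1 to 3. Deviations of same-numbered arrays from their group means correlated at -0.03, -0.05 and 0.04. The highest correlation, 0.10, was between control gapmer replicate 1 and EGOT gapmer replicate 2. These values give no sign of pairing, but with 3 arrays per group they cannot settle it. The labels do not say whether same-numbered arrays were handled together. With the replicate block 0 of all genes passed, TRIM genes and related lists included, though 3438 genes and 14 TRIM genes were at an unadjusted p under 0.05 in limma. The block leaves fewer degrees of freedom. Limma adjusted p-values of the 6 TRIM genes were then 0.0634 to 0.0808. Near the low end of the scale background limits what could be seen.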

Other observations

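The read-through transcript TRIM6-TRIM34, which joins a pair of TRIM genes between TRIM5 and TRIM22, has a probe set of its own and was outside the rule for members. Its log2 level was 5.83, 5.95 and 5.90 with the control gapmer and 5.81, 5.73 and 5.57 with the EGOT gapmer. Every EGOT gapmer array was below every control array, and the log2 difference of -0.19 did not pass (limma adjusted p = 0.218). Its probe set may also read transcripts of TRIM6 or TRIM34, neither of which had a named probe set of its own.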
